A study of Sus scrofa with 6 samples.

Results

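The genes described here are those of the pig major histocompatibility complex, called SLA for swine leukocyte antigen, together with B2M and CD74, the partner proteins of class I and class II molecules. They are SLA-1, SLA-2, SLA-3 and B2M for class I, and SLA-DRA, SLA-DRB1, SLA-DQA1, SLA-DQB1, SLA-DMA and CD74 for class II. All 10 were read. The array names 6765 genes on a probe set of their own, and SLA-1 is not among these, since its probe sets carry other symbols too. The probe sets taken were those annotated to 1 of these genes, and a probe set with several symbols was kept where every symbol is an SLA gene. This gave 28 of 23999 probe sets, 16 of class I and 12 of class II. On 7 of them 1 symbol is a locus number that RefSeq lists with an SLA name among its synonyms. Probe sets of a gene with more than 1 are numbered by falling mean intensity (B2M 1 to B2M 9). The samples were renal medulla from 3 CPB pigs, kept for 2.5 hours on cardiopulmonary bypass under general anaesthesia, and from 3 Sham pigs, anaesthetised for the same 2.5 hours without bypass. All were adult female Large White-Landrace crossbred pigs. Neck dissection and heparin were shared by both groups, and the kidney was sampled 24 hours later. Every animal had an array of its own, so n = 3 animals in CPB and n = 3 in Sham. Values are intensities from RMA, by which the authors corrected background, brought the arrays to a common distribution and combined the probes into 1 value per probe set.

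Class I molecules sit on nearly all nucleated cells and show peptides from the inside of the cell to CD8+ T cells. Each is made of a heavy chain, encoded by SLA-1, SLA-2 or SLA-3, and of beta-2 microglobulin, encoded by B2M. Class II molecules pair an alpha and a beta chain (DRA with DRB1, DQA1 with DQB1), carry peptides from taken-up material and are read by CD4+ T cells. They are found mainly on dendritic cells, macrophages and B cells. Their chains are guided by CD74, the invariant chain, before the DM molecule, of which SLA-DMA is the alpha chain, helps to load the peptide. Interferon gamma raises the transcription of both classes, and CIITA is the master activator of class II genes. In the RefSeq annotation of the pig assembly Sscrofa11.1 the SLA genes share 1 chromosome, where SLA-1, SLA-2 and SLA-3 are followed by SLA-DRA, SLA-DRB1, SLA-DQA1, SLA-DQB1 and SLA-DMA. B2M and CD74 lie on other chromosomes. SLA alleles differ widely between animals, and those of these pigs are not given in the sources used here.

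The arrays differed in tissue markers. Array medians lay between 94.3 and 96.5. The mean of the 9 proximal tubule markers measured of 15 listed, each centred over the 6 arrays on the log2 scale, was 1.38, -1.63 and 1.56 in CPB 1, CPB 2 and CPB 3, against -2.41, 1.35 and -0.25 in Sham 1, Sham 2 and Sham 3. The proximal tubule belongs largely to the cortex, and CPB 2 and Sham 2 each lay on the far side of their own group. AQP3, a water channel of the collecting duct, had intensities of 1079.8, 5437 and 1280.4 in CPB and 4831, 1048 and 2589.6 in Sham. The 4 of 8 collecting duct markers did not move together. HSD11B2, another of them, was lowest in Sham 1 (638) and highest in Sham 2 (1903). Their centred mean was -0.21, 0.42 and -0.25 in CPB and 0.035, 0.041 and -0.032 in Sham. CLDN10, a claudin of the thick ascending limb, lay between 1419 and 2051 on all 6 arrays. KCNJ1, another marker of that segment, ran from 835 in CPB 3 to 2219 in Sham 1. How much medulla each sample held was not tested. In whole tissue, fewer cells of a type and less RNA per cell cannot be told apart.

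Whether bypass went with other levels of these genes was asked by comparing CPB with Sham. No member passed an adjusted p of 0.05, and none met the threshold of the study, which is at least a 1.6-fold difference at an unadjusted p under 0.05. SLA-3, SLA-DRA, SLA-DQA1 and SLA-DQB1 had lower means in CPB, with differences of -0.83, -0.77, -0.75 and -0.60 on the log2 scale. The 3 brightest B2M probe sets differed by 0.0034, -0.16 and -0.20, and the dimmer B2M 5 by -0.88 (standard error 0.83). SLA-DRB1 1 differed by -0.25, CD74 by -0.055 and SLA-DMA 1 by 0.19. The test was limma's moderated test on log2 intensities of all 23999 probe sets, with p-values adjusted over all of them by Benjamini and Hochberg. Of all probe sets 73 met the study's threshold (0.304%), while 0 passed limma's adjusted p (0%) or that of the methods' t-test, and 336 had an unadjusted p under 0.05 (1.4%). With 3 animals in each group the smallest two-sided exact permutation p is 0.1.

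Of the 16 class I probe sets 11 had a lower mean in CPB and 5 a higher one, and the median difference was -0.13 on the log2 scale (CPB minus Sham throughout). Of the 12 class II probe sets 8 had a lower mean in CPB and 4 a higher one, and the median was -0.15. Over all probe sets the median was 0.027, and 44.1% had a lower mean in CPB. A mean at least 1.6-fold lower in CPB was found on 2 class I and 2 class II probe sets (1.76% of all). Every CPB animal lay below every Sham animal on B2M 4 and on SLA-DQB1 (1.89% of all), and no member had every CPB animal above (3.38% of all). SLA-DQB1 was the 1 member with an unadjusted p under 0.05 (0.7% of all in this direction). The smallest adjusted p of limma was 0.995 in both classes.

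**Figure D1:**
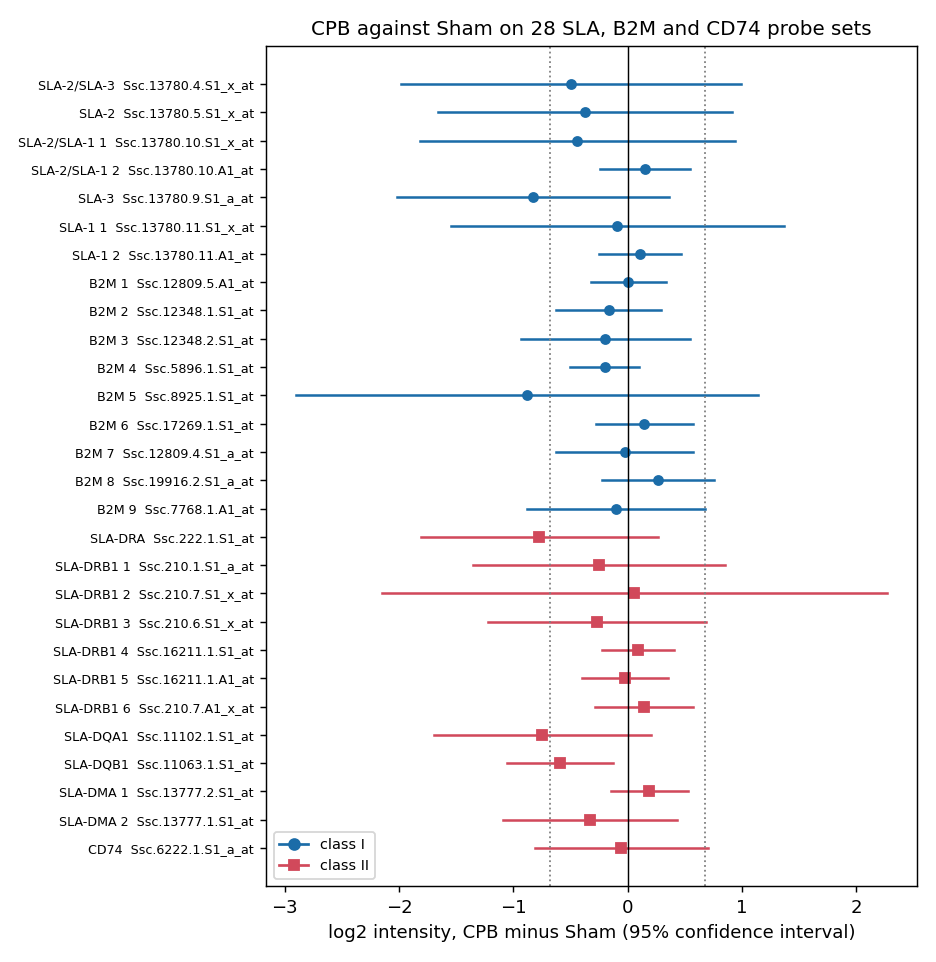
Difference in log2 intensity, CPB minus Sham, for each of the 28 probe sets (points) with its 95% confidence interval from limma (lines), for class I (circles) and class II (squares). Dotted lines mark 1.6-fold in each direction, and the interval of SLA-DQB1, from -1.06 to -0.13, is the 1 that does not reach 0.

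The class I heavy chains were read by 7 probe sets. An x in the suffix of 4 of them marks probes that may also bind other transcripts, and no probe set carries SLA-1 as its only symbol, so the heavy chains are not read apart with certainty. On the 4 brightest the mean was lower in CPB, but the animals of each group lay far apart and the groups overlapped. The probe set shared by SLA-2 and SLA-3 had intensities of 1822, 4822 and 1323 in CPB 1, CPB 2 and CPB 3 and of 4759.8, 1653 and 4160.3 in Sham 1, Sham 2 and Sham 3. CPB 2 was the highest array and Sham 2 lay between CPB 1 and CPB 3. The difference was -0.50 (standard error 0.61, 95% confidence interval -1.98 to 0.99, n = 3 animals per group, adjusted p = 0.995 from limma).

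The probe set of SLA-2 alone had 2119, 4708 and 1412 in CPB and 4405, 1864 and 3744 in Sham, with a difference of -0.38 (standard error 0.53, 95% confidence interval -1.66 to 0.91). The brighter of the 2 probe sets for SLA-2 with SLA-1 had 1851, 5303 and 1335 in CPB and 4139, 2041 and 3894 in Sham, with a difference of -0.44 (standard error 0.56). On all of these CPB 2, Sham 1 and Sham 3 were high and CPB 1, CPB 3 and Sham 2 were low. Without CPB replicate 2 the SLA-2 with SLA-1 probe set differed by -1.03 and met the study's threshold, as did 2.89% of all probe sets in that fit. Without CPB replicate 3 it differed by -0.032, SLA-2 with SLA-3 by -0.11 and SLA-2 by 0.012.

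SLA-3, read alone by 1 probe set, had the largest difference of the heavy chains. Its intensities were 899, 2288 and 846 in CPB 1, CPB 2 and CPB 3, against 3435, 1479 and 1916 in Sham 1, Sham 2 and Sham 3. CPB 1 and CPB 3 lay below every Sham animal and CPB 2 above Sham 2 and Sham 3. The difference was -0.83 (standard error 0.49, 95% confidence interval -2.02 to 0.36). It was -1.29 without CPB replicate 2, where it met the study's threshold, and -0.49 without Sham replicate 1.

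**Figure D2:**
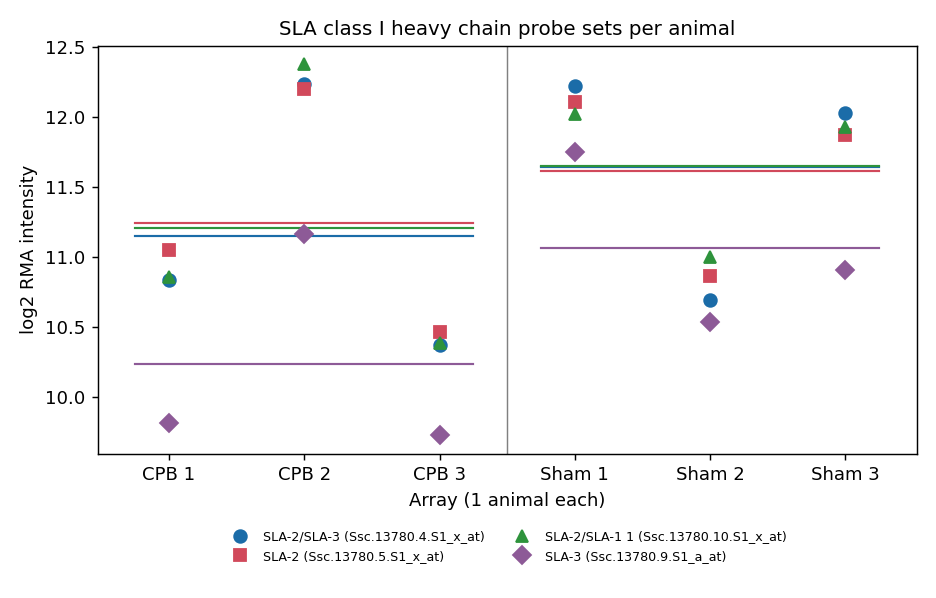
Log2 RMA intensity of the 4 brightest heavy chain probe sets, with 1 point per animal (CPB left, Sham right) and a line for each group mean. On the 3 probe sets that hold SLA-2, CPB 2 (4708 to 5303 before log2) lies with Sham 1 and Sham 3, while Sham 2 lies near CPB 1, and SLA-3 is highest in Sham 1 (3435).

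The remaining heavy chain probe sets were dimmer. The brighter SLA-1 probe set had intensities of 56.4, 156 and 85.4 in CPB and 45.3, 179 and 112 in Sham. Sham 1 was its lowest array and Sham 2 its highest, the reverse of their order on the probe sets that hold SLA-2 alone or with SLA-3. The difference was -0.090 (95% confidence interval -1.54 to 1.36). The dimmer probe set of SLA-2 with SLA-1 had its 3 highest arrays in CPB 1, CPB 3 and Sham 2, unlike the brighter one. It and the dimmer SLA-1 probe set lay between 23.9 and 116, differed by 0.15 and 0.10, and had a ratio of the highest to the lowest array of 1.43 and 1.32.

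B2M, the light chain of every class I molecule, was read by 9 probe sets according to the array annotation. Their profiles over the arrays differed, and the annotation of each to B2M was not checked against probe sequences. B2M 1 had intensities of 12123, 13935 and 10737 in CPB and 12916, 11919.8 and 11699.8 in Sham, with a ratio of 1.30 between the highest and the lowest array. The difference was 0.0034 (standard error 0.13, 95% confidence interval -0.33 to 0.33). B2M 2 had 8035, 9109 and 6671 in CPB and 10244, 7219 and 9304 in Sham, a difference of -0.16 (95% confidence interval -0.62 to 0.29). The 3 highest arrays of B2M 2 were CPB 2, Sham 1 and Sham 3, as on the bright heavy chain probe sets. B2M 3 had 3555, 5255 and 3365 in CPB and 6053, 3091 and 5064 in Sham, in the same pattern, and differed by -0.20 (95% confidence interval -0.94 to 0.54).

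B2M 4 separated the groups by a small margin. It had 3535, 3656 and 3516 in CPB and 3720.4, 4009 and 4643 in Sham, so the highest CPB animal lay just below the lowest Sham animal. The difference was -0.20 (standard error 0.12, 95% confidence interval -0.50 to 0.098), or 1.15-fold, and did not pass the test. B2M 5 had the largest difference of class I and the widest spread, with 165, 1421 and 429 in CPB and 477, 924 and 1424 in Sham. Sham 3 was 8.66 times as high as CPB 1, while the largest ratio of the other B2M probe sets was 2.00. Its difference was -0.88 (standard error 0.83, 95% confidence interval -2.90 to 1.14). It was -1.69 without CPB replicate 2, where it met the study's threshold, and -0.13 without CPB replicate 1. B2M 6 to B2M 9, at mean intensities from 312 to 193, differed by -0.10 to 0.26.

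Among the class II chains, SLA-DRA, SLA-DQA1 and SLA-DQB1 each had a lower mean in CPB. CPB 2 was the lowest array on all 3 of them, although it was the highest on the 3 bright probe sets that hold SLA-2. SLA-DRA, the alpha chain of DR, had intensities of 1241, 473 and 1099 in CPB 1, CPB 2 and CPB 3, against 1582, 1054 and 1931 in Sham 1, Sham 2 and Sham 3. Sham 2 was the 1 Sham animal inside the CPB range. The difference was -0.77 (standard error 0.42, 95% confidence interval -1.81 to 0.26), and it was -0.34 without CPB replicate 2.

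SLA-DQA1, the alpha chain of DQ, had 748, 403 and 820.0 in CPB and 1151, 679.6 and 1492 in Sham. Sham 2 again fell inside the CPB range and the other Sham animals lay above it. The difference was -0.75 (standard error 0.39, 95% confidence interval -1.70 to 0.20), and it was -0.43 without CPB replicate 2. Without Sham replicate 2 it was -1.06 and met the study's threshold, as did 2.92% of all probe sets.

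SLA-DQB1, the beta chain that pairs with SLA-DQA1, was the 1 class II probe set on which the groups did not overlap. Its intensities were 946, 614 and 739 in CPB and 1238, 1009 and 1187 in Sham, with means of 767 ± 168 in CPB and 1145 ± 120.4 in Sham (SD, n = 3 each). The highest CPB animal, CPB 1, lay below the lowest Sham animal, Sham 2. The difference was -0.60 (standard error 0.19, 95% confidence interval -1.06 to -0.13, unadjusted p = 0.02 and adjusted p = 0.995 from limma), or 1.51-fold, short of the 1.6-fold minimum. It met the study's threshold without CPB replicate 1 (-0.76, 0.329% of all probe sets called) and without Sham replicate 2 (-0.68), and was -0.45 without CPB replicate 2.

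**Figure D3:**
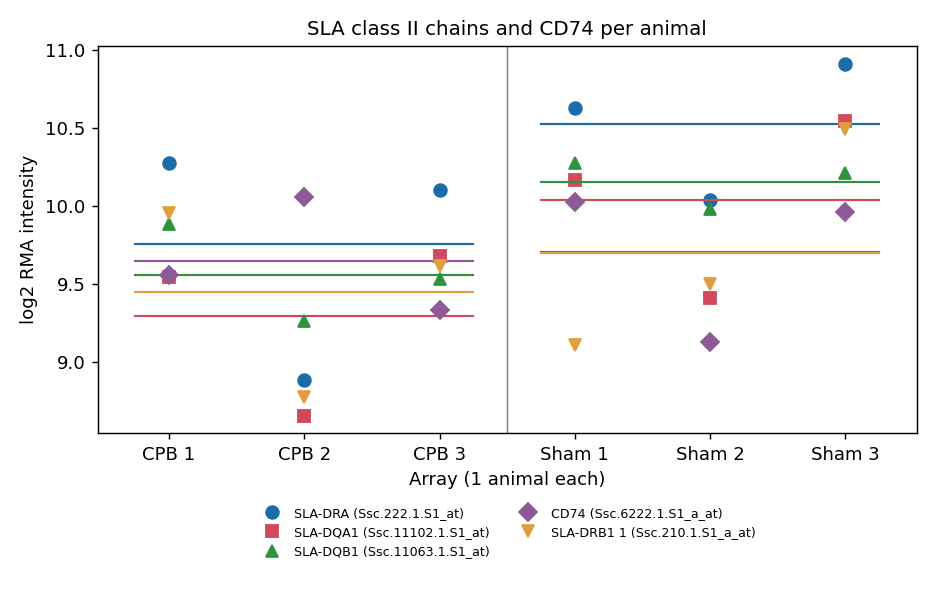
Log2 RMA intensity of SLA-DRA, SLA-DQA1, SLA-DQB1, the brightest SLA-DRB1 probe set and CD74, with 1 point per animal (CPB left, Sham right) and a line for each group mean. CPB 2 is the lowest array on the 4 chains (614 for SLA-DQB1 before log2) and the highest on CD74 (1065).

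SLA-DRB1, the beta chain that pairs with SLA-DRA, was read by 6 probe sets that ordered the animals differently. SLA-DRB1 1 had 994, 437 and 784 in CPB and 552, 723 and 1446 in Sham, a difference of -0.25 (95% confidence interval -1.36 to 0.85). Sham 3 was its highest array, and without Sham replicate 3 the difference was 0.14. SLA-DRB1 2 had 378, 188 and 355 in CPB and 72.6, 342 and 901 in Sham. Sham 3 was 12.4 times as high as Sham 1, the widest range of any member, and the difference of 0.058 had a 95% confidence interval from -2.15 to 2.27.

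SLA-DRB1 3 placed the same animals the other way, with 192, 139.7 and 247 in CPB and 378, 209.7 and 146 in Sham. Sham 1 was its highest array but the lowest on SLA-DRB1 2, while Sham 3 was next to its lowest but the highest on SLA-DRB1 2. The difference was -0.27 (95% confidence interval -1.22 to 0.68). Both of these probe sets carry the x suffix and a locus number beside SLA-DRB1. SLA-DRB1 4, 5 and 6 were dim, between 16.5 and 36.3, and differed by -0.023 to 0.14. Of all members, 6 of 16 in class I and 4 of 12 in class II had a highest array at least 3 times the lowest (10% of all probe sets).

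**Figure D4:**
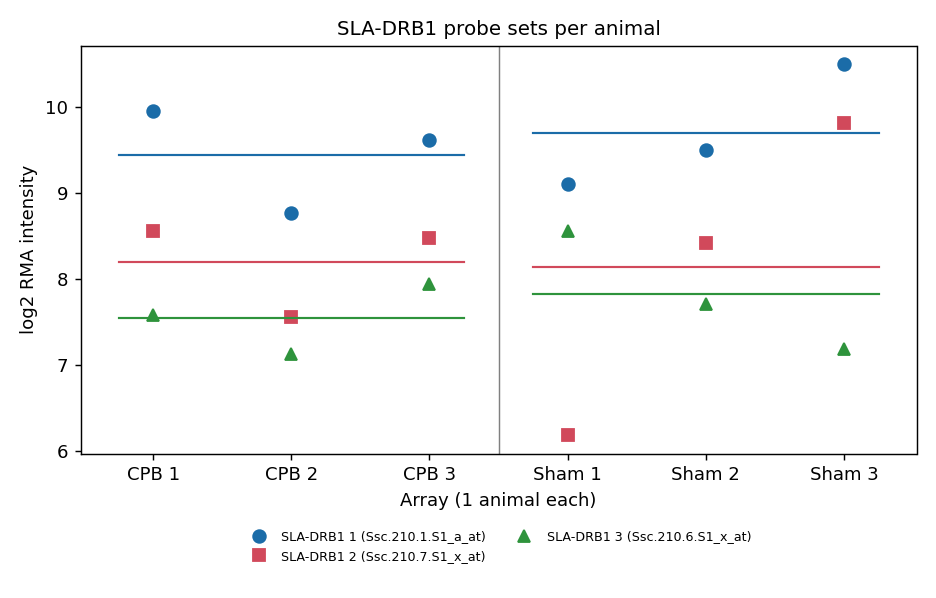
Log2 RMA intensity of SLA-DRB1 1, 2 and 3, with 1 point per animal (CPB left, Sham right) and a line for each group mean. Before log2, Sham 1 is lowest on SLA-DRB1 2 (72.6) and highest on SLA-DRB1 3 (378), and Sham 3 is at 901 and 146 on them.

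CD74 and SLA-DMA did not share the order of SLA-DRA, SLA-DQA1 and SLA-DQB1. CD74 had intensities of 754, 1065 and 646 in CPB and 1043, 558 and 997 in Sham. Its 3 highest arrays were CPB 2, Sham 1 and Sham 3, those of the 3 bright heavy chain probe sets that hold SLA-2. The difference was -0.055 (standard error 0.31, 95% confidence interval -0.81 to 0.70). SLA-DMA had 1 probe set of each sign. SLA-DMA 1 had 538, 676 and 561 in CPB and 556, 472 and 524 in Sham, a difference of 0.19 (95% confidence interval -0.15 to 0.53). SLA-DMA 2 had 219, 282 and 188 in CPB and 387, 184 and 324 in Sham, a difference of -0.33 (95% confidence interval -1.09 to 0.43).

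Averaged per array, class I and class II parted in CPB 2. The mean of the 7 heavy chain probe sets, each centred over the 6 arrays on the log2 scale, was -0.43, 0.57 and -0.57 in CPB 1, CPB 2 and CPB 3, against 0.26, -0.073 and 0.24 in Sham 1, Sham 2 and Sham 3. That of the 9 B2M probe sets was -0.28, 0.27 and -0.18 in CPB and 0.074, -0.024 and 0.14 in Sham. That of the 12 class II probe sets was 0.047, -0.35 and -0.020 in CPB and 0.021, -0.058 and 0.36 in Sham. By these means CPB 2 was the highest array in class I and the lowest in class II. Not all of class II followed, since CD74 and SLA-DMA 1 had CPB 2 as their highest array. The lowest and the highest array of the heavy chains were both CPB animals.

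Marker lists of other cell types moved across the arrays beside class I. The centred mean of 9 of 11 endothelial markers was -0.36, 0.37 and -0.52 in CPB and 0.54, -0.25 and 0.22 in Sham, and PECAM1, an adhesion molecule of endothelium, had 533, 752 and 427 in CPB and 1232, 708 and 927 in Sham. PECAM1 met the study's threshold (difference -0.75, standard error 0.29), although CPB 2 lay above Sham 2. It was 1 of 5 endothelial markers with a lower mean in CPB, while 4, among them VWF (0.091) and KDR (0.080), had a higher one. That of 6 of 11 T and NK cell markers was -0.34, 0.64 and -0.47 in CPB and 0.41, -0.19 and -0.058 in Sham. CD3E, a chain of the T cell receptor complex, had 59.9, 296 and 61.6 in CPB and 187, 65.8 and 99.8 in Sham, and so was high in CPB 2 and Sham 1. CD3G, CD2 and LCK were also highest in CPB 2 and Sham 1, and so was CD3D, though only between 154 and 200. CD247 did not follow, as it lay between 102 and 124 and was lowest in Sham 1. The T and NK cell mean was below 0 in Sham 3, where the heavy chains were at 0.24. The 4 of 8 urothelial markers had -0.88, 0.49 and -0.95 in CPB and 0.51, -0.87 and 1.70 in Sham. The proximal tubule markers were high in CPB 1, CPB 3 and Sham 2, where the heavy chains were low. The part of these cell types in the class I levels was not tested.

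Beside class II, 8 of 15 macrophage and dendritic cell markers had a centred mean of 0.12, -0.26 and -0.096 in CPB and 0.19, -0.17 and 0.22 in Sham. C1QC, a complement chain made by macrophages, had 460.1, 376 and 244 in CPB and 690.0, 264 and 813 in Sham. CD163, a scavenger receptor of macrophages, had 176, 119.8 and 137 in CPB and 246.5, 127 and 245 in Sham. Both were high in Sham 1 and Sham 3, as were SLA-DRA and SLA-DQA1, but the list was divided, with 4 of its 8 markers lower in CPB by their means and 4 higher. CD14, a monocyte receptor, was among the others, with 70.4, 72.2 and 83.7 in CPB and 63.3, 76.7 and 64.2 in Sham. The 2 of 9 B and plasma cell markers had 0.58, 0.085 and -0.090 in CPB and -0.26, 0.11 and -0.42 in Sham, with CD79B, a B cell receptor chain, between 30.9 and 47.5. JCHAIN, the other marker, had 1569, 735 and 505 in CPB and 610, 743 and 478 in Sham, and so was highest in CPB 1 by a wide margin. The part of these cells in the class II levels was not tested.

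**Figure D5:**
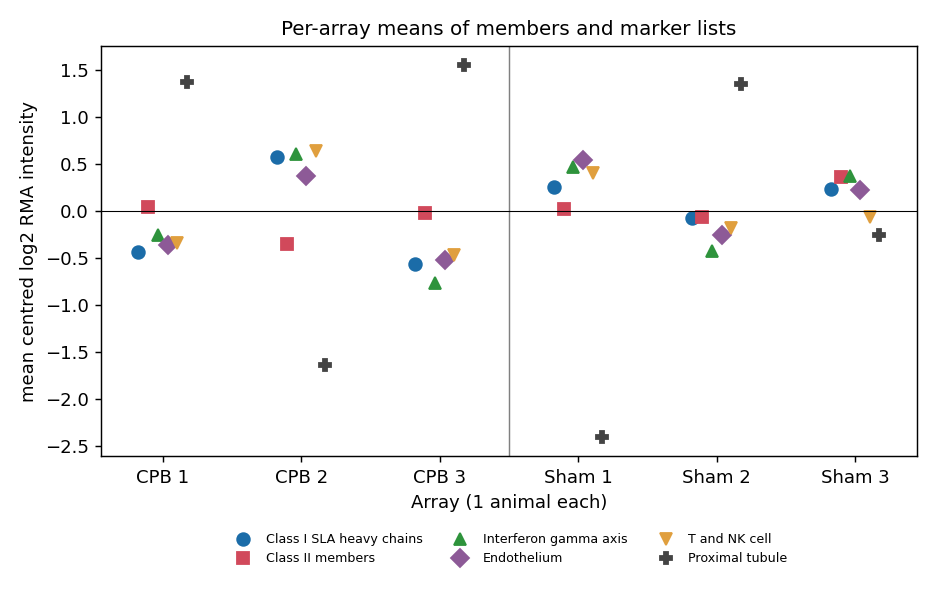
Mean log2 intensity per array of the 7 heavy chain probe sets, the 12 class II probe sets, interferon gamma axis genes and markers of endothelium, T and NK cells and proximal tubule, with every probe set centred over the 6 arrays (CPB left, Sham right). Heavy chains are at 0.57 in CPB 2 where class II is at -0.35, and proximal tubule markers are highest in CPB 3 (1.56) and lowest in Sham 1 (-2.41).

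Leaving out CPB 2 and Sham 2 together put heavy chains past the study's threshold. All 4 bright heavy chain probe sets and B2M 3 then met it, lower in CPB, or 5 of 16 class I probe sets beside 7.14% of all probe sets in this direction and 12.8% in either. SLA-3 differed by -1.56, SLA-2 with SLA-3 by -1.52, SLA-2 with SLA-1 by -1.35, SLA-2 by -1.23 and B2M 3 by -0.68. The probe set of SLA-2 with SLA-3 also passed limma's adjusted test there (adjusted p = 0.0467, with 2 animals per group), as did 719 of all probe sets (3%). In class II SLA-DQA1 (-0.74) and SLA-DMA 2 (-0.80) met it, or 2 of 12. The CPB animals of that fit had proximal tubule markers at 1.38 and 1.56 and its Sham animals at -2.41 and -0.25. The level of tubule markers and bypass therefore cannot be told apart in it. With array weights, by which limma lets arrays count unequally, the 4 bright heavy chain probe sets, B2M 5 and SLA-DQA1 met the threshold, as did 8.82% of all probe sets. The weights were 6.17, 0.37 and 0.87 in CPB 1, CPB 2 and CPB 3, and 1.15, 0.34 and 1.27 in Sham 1, Sham 2 and Sham 3. CPB 2 and Sham 2 thus counted least in this fit too, and CPB 1 most.

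Other genes of antigen presentation were read in 5 lists, in which 40 genes had a probe set of their own. None met the study's threshold or passed limma's adjusted test. In class I peptide loading and the proteasome, the means of 6 of 9 genes were higher in CPB and the median was 0.026. CALR, the chaperone calreticulin, had 231, 439 and 265 in CPB and 229, 211 and 209 in Sham. The difference was 0.47 (standard error 0.25). The groups did not overlap (3.38% of all probe sets in this direction), but CPB 1 lay just above Sham 1. TAPBP, tapasin, which bridges class I molecules to the peptide transporter, differed by 0.28 (standard error 0.50), PDIA3, a disulphide isomerase, by 0.081 (standard error 0.17) and PSME1, a proteasome activator, by -0.12 (standard error 0.20). TAP1, a subunit of the peptide transporter, had 783, 1107 and 281 in CPB and 918, 305 and 1072 in Sham. Its 3 highest arrays were again CPB 2, Sham 1 and Sham 3.

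Class II loading, proteases and transactivators had a median of 0.15, with 5 of 9 genes higher in CPB by their means. SLA-DMB, the beta chain of DM, had 287, 212 and 222 in CPB and 390.3, 234 and 334 in Sham, a difference of -0.39 (standard error 0.23). SLA-DOA, a chain of the DO molecule that restrains DM, differed by -0.27 (standard error 0.22), and CTSD, a lysosomal protease, by 0.38 (standard error 0.22). CIITA had 102, 140.4 and 101 in CPB and 104, 99.2 and 92.6 in Sham, a difference of 0.20 (standard error 0.16). It was highest in CPB 2, where SLA-DRA, SLA-DQA1 and SLA-DQB1 were lowest.

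The 6 other class I and class I-like genes had a median of -0.20, and 3 of them had a lower mean in CPB. SLA-6, a class Ib heavy chain, had 270.3, 1364 and 316 in CPB and 1086, 519.7 and 839 in Sham, a difference of -0.68 (standard error 0.66). SLA-8, another class Ib heavy chain, had 538, 1215 and 464 in CPB and 1177, 652 and 1008 in Sham, a difference of -0.45 (standard error 0.42). Both were highest in CPB 2, Sham 1 and Sham 3, like the 3 bright probe sets that hold SLA-2. PROCR, the endothelial protein C receptor, differed by -0.47 (standard error 0.32) and FCGRT, the neonatal Fc receptor, by 0.11 (standard error 0.11).

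In the interferon gamma axis 8 of 9 genes had a lower mean in CPB, with a median of -0.21. GBP1, a guanylate-binding protein induced by interferon, had 429, 1023 and 173 in CPB and 1171, 280.2 and 1020.0 in Sham, a difference of -0.71 (standard error 0.81). CXCL9, a chemokine induced by interferon gamma, had 155, 1144 and 114 in CPB and 561, 171 and 891 in Sham. Both were again highest in CPB 2, Sham 1 and Sham 3. GBP2 differed by -0.30 (standard error 0.38), and the kinases JAK1 and JAK2 by -0.21 (standard error 0.17) and -0.19 (standard error 0.22). IFNG itself was dim, between 14.7 and 19.5. The centred mean of this list was -0.26, 0.61 and -0.77 in CPB and 0.47, -0.42 and 0.37 in Sham.

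The T cell co-receptors and costimulatory molecules had a median of 0.082, and the means of 6 of 7 were higher in CPB. CD4, which binds class II, differed by 0.25 (standard error 0.16), CD8B by 0.17 (standard error 0.21), CD80 by 0.12 (standard error 0.17) and CD86 by -0.34 (standard error 0.25). CD8A, a chain of the co-receptor that binds class I, had 59.2, 370.2 and 64.3 in CPB and 118, 84.6 and 119 in Sham. CPB 2 was its highest array by a wide margin.

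Likeness to each class was measured by Pearson's r over the 6 arrays, among 5008 named genes above the median intensity. It was taken between the log2 intensity of a gene and the centred mean of all probe sets of the class. Of these probe sets, 9 of 16 in class I belong to B2M and 6 of 12 in class II to SLA-DRB1. Closest to class I were IL10RB, a receptor chain for interleukins and type III interferons (r = 0.995), C12H17orf49 (0.990), the ribosomal protein genes RPL13 (0.989) and RPL27 (0.989), and GNAZ (0.988). IL10RB had 78.3, 127 and 81.1 in CPB and 109, 92.9 and 110.6 in Sham. Closest to class II were SEC63, a translocation factor of the endoplasmic reticulum (r = 0.987), TMEM131 (0.978), LARP7 (0.971), MAD2L1 (0.964) and VEGFA (0.963). SEC63 had 717, 440.5 and 726 in CPB and 678, 651 and 1035 in Sham. These values describe the order of 6 arrays that differ in tissue markers, and no test was made on them.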

How the data were processed

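The authors checked the quality of the scanned arrays with GCOS and then ran RMA in ArrayStar (background correction, quantile normalisation, median polish). RMA is also named in the processing notes of the submitters. The deposited values are RMA intensities of 24123 probe sets on a linear scale, read as linear from their size and range, and were taken to log2. The 124 control probe sets were left out. No measure of signal over background was used, and no genome build was needed.

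Gene names came from the annotation of the array, where 10297 probe sets appear, 10099 with 1 symbol and 198 with several. The other 13826 are unnamed here. Groups were compared with limma 3.58.1 (lmFit, eBayes, group as the only term) in R 4.3.3, tried first on simulated data. Lists used the brightest probe set of each gene.

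The members and lists were chosen with earlier results of these data known. Every member probe set is described. In each of the 5 antigen presentation lists the 4 genes with the smallest p are named, and so are the 5 genes closest to each class. Of the marker lists, proximal tubule and urothelium are given by their means alone, and the others described have some markers named. Granulocyte markers and fibroblast and pericyte markers were also measured and are not described. TAP1, CXCL9, IFNG and CD8A were added after their values were seen. Alternatives covered the test, its prior, array weights, a second quantile normalisation, median centring, dim and control probe sets, probe sets per gene, the fold minimum, the replicate number as a block and left-out arrays. The samples behind each test are 3 animals per group, or fewer in the fits with arrays left out. The p-values rest on the spread between these animals, and those of limma also draw on the spread of all probe sets.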

Additional observations from a re-analysis of the deposited data

How the results depend on the processing

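Precision was limited by 3 animals per group, and the arrays differed in tissue markers. Of all probe sets 73 met the study's threshold. This count became 30 with the methods' t-test on log2 values, 26 with that test on linear values, 21 at a fold minimum of 2, 2116 with array weights (the estimate of the weights stopped before it converged) and 3070 without Sham replicate 2 and CPB replicate 2. It lay between 52 and 701 with 1 array left out, at 701 without Sham replicate 2 and at 693 without CPB replicate 2. The class I count of 0 became 5 with array weights, 5 without both of these arrays, and 0 to 3 with 1 array left out, at 3 without CPB replicate 2. The class II count of 0 became 1 with array weights, 2 without both arrays, 1 at a fold minimum of 1.5, and 0 to 2 with 1 array left out, at 1 without CPB replicate 1 and 2 without Sham replicate 2. With the replicate block it was 2, for SLA-DRA and SLA-DQA1, where 76 of all probe sets met the threshold. The deviations of animals that share a number had r of -0.39, -0.68 and -0.016 over probe sets. These r values also hold the differences in tissue markers and so cannot show or exclude a pairing. The labels give the numbers only as biological replicates. With 1 probe set per gene, the brightest, the class I median of -0.13 became -0.41 and the class II median of -0.15 became -0.42, and with 1 array left out they lay between -0.33 and -0.010 and between -0.33 and -0.031. Of the lists, class II loading had 4 genes at the threshold with array weights and 4 without both arrays, the other class I genes 3 and 3 (0 to 2 with 1 array left out), the interferon gamma axis 1 and 4, and the T cell molecules 2 without both arrays (0 to 1 with 1 array left out). The sign turned on 12 of the 28 probe sets. With 1 array left out, or both CPB 2 and Sham 2, the difference lay between -1.23 and 0.012 on SLA-2, -0.64 and 0.36 on SLA-1 1, -0.11 and 0.095 on B2M 1, -0.68 and 0.0070 on B2M 3, -0.36 and 0.19 on B2M 7, -0.57 and 0.070 on B2M 9, -0.55 and 0.14 on SLA-DRB1 1, -0.92 and 0.90 on SLA-DRB1 2, -0.59 and 0.10 on SLA-DRB1 3, -0.14 and 0.13 on SLA-DRB1 5, -0.028 and 0.31 on SLA-DRB1 6, and -0.55 and 0.11 on CD74. B2M 1 was also -0.022 with array weights and -0.031 after a second quantile normalisation, SLA-DRB1 1 was 0.063 and SLA-DRB1 5 was 0.081 with array weights, and SLA-DRB1 2 was -0.51 with the methods' t-test on linear values. The cause was not tested. Under the other alternatives run, the class counts stayed at 0 and both class medians stayed below 0.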
